A study of Mus musculus with 19 samples.

Results

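The nephrin locus of the mouse holds 3 genes that were followed here by their symbols, Nphs1, Nphs1as and Kirrel2, out of 23420 genes in the counts files. The members were selected on the change of Nphs1 and Nphs1as in 129 iPSC moved between media, so their values in that comparison are given as a description and without a test. The locus was described in all 19 RNA libraries of the series, and the tests compared lines outside that comparison. The libraries of that comparison still entered the shared fit, which set the filter, the scaling and the spread of the edgeR tests.

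Nephrin, the product of Nphs1, is a cell adhesion protein of the immunoglobulin superfamily and a core part of the slit diaphragm, the junction between the foot processes of kidney podocytes. Kirrel2 encodes a nephrin-related protein of the same superfamily and is read from the opposite strand, head to head with Nphs1. Nphs1as is a noncoding transcript that lies within Nphs1 and is also read from the opposite strand.

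Stranded mRNA libraries were made from mouse pluripotent lines of the strains 129S1/SvImJ, NOD/ShiLtJ and WSB/EiJ, each line or clone in a medium giving 1 library. The study asked whether iPSC derived in 2iS resemble ESC more than EpiSC in their RNA. The 14 iPSC libraries came from fibroblasts of embryos pooled per litter, reprogrammed with a lentivirus for Oct4, Klf4, Sox2 and Myc that expressed constitutively and was not removed. Feeder cells were depleted from the iPSC before RNA was taken.

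ESC/LIF is a serum medium with LIF, and 2iS is that medium with an inhibitor of GSK3B and an inhibitor of MEK. The 129 iPSC in ESC/LIF were male clones 1 and 17 and female clones 5 and 8, and the 129 iPSC in 2iS were the same clones 1 and 17 after a move to 2iS. The NOD iPSC in 2iS were female clones 7 and 52 and male clones 3 and 35, and the WSB iPSC in 2iS were male clones 12 and 25 and female clones 23 and 28. The 3 ESC lines (NOD, WSB and 129) were male, 1 line of each strain, and were kept in serum medium with LIF and inhibitors of the same kinds. The 2 EpiSC lines (NOD and 129) were male and stood for the primed state, and the 129 EpiSC came from a related 129 background. They were kept in EpiSC culture conditions, which differ from those of ESC. Groups follow the sample titles, and in all 19 samples other label fields name a different line or condition, so every group below rests on the titles. Replicates are separate lines or clones, though 129 male clones 1 and 17 enter the fit in both media. The p-values measure the spread between lines or clones, pooled over the groups. The iPSC clones of a strain came from pooled fibroblasts, so their spread is not one between animals. The ESC and EpiSC are 1 line per strain, so their spread includes that between strains.

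The libraries were shallow over genes. Counts assigned to genes summed to 92996 to 226794 in 17 libraries, which was 1.15% to 1.74% of the uniquely aligned read pairs. The 2 NOD male iPSC libraries stood apart, with 430173 and 567432 counts and 5.59% and 5.62% of the pairs on genes. Gapdh, a glycolytic enzyme abundant in every cell, was listed with 0 to 6 counts in the 17 libraries and with 15 and 27 in the NOD male iPSC. The kit keeps the strand of the RNA and the strand setting of the counting is not given in the sources used here, so the counts listed under any gene may come from RNA of the strand opposite to it. Counts under Nphs1 could then be RNA read from the Nphs1as strand over Nphs1 exons, and counts under Nphs1as could be RNA of the Nphs1 strand over Nphs1as exons, Nphs1 introns included. This holds for every value of the members below, and which strand was counted was not tested. The NOD male iPSC are given apart from the other lines, and the tests otherwise used 17 libraries.

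In GENCODE M21 (GRCm38), Kirrel2 (ENSMUSG00000036915.17) lies on the minus strand at chr7:30447534-30457690. Nphs1 (ENSMUSG00000006649.17) lies on the plus strand at chr7:30458315-30487223, and its transcript Nphs1-201 has 30 exons. The first annotated Nphs1 start is 800 bases from the start of Kirrel2-201, and the start of Nphs1-201 is 2210 bases from it. Nphs1as is annotated there as Nphs1os (ENSMUSG00000087009.1), a minus-strand transcript of 3 exons and 1339 bases at chr7:30462164-30465591. Exon 1 of Nphs1as overlaps exon 12 of Nphs1-201, exon 2 overlaps exons 9 and 10, and exon 3 overlaps exons 7 and 8. In all, 597 bases of Nphs1as, 44.6% of its exons, lie in Nphs1 exons, and they make up 9.02% of the exon bases of Nphs1. Kirrel2 shares no exon base with the other members.

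**Figure D1:**
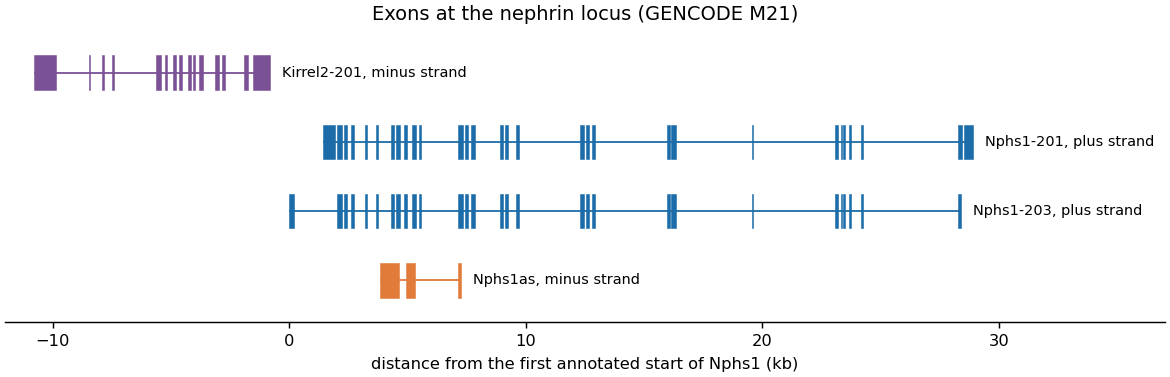
Exons (boxes) and introns (lines) of Kirrel2, of 2 Nphs1 transcripts and of Nphs1as in GENCODE M21, drawn to scale by distance in kb from the first annotated start of Nphs1. Kirrel2 and Nphs1 point away from each other, and the 3 exons of Nphs1as lie inside Nphs1 over its exons 7 to 12.

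The overlap is shown in sequence because it sets what the counts of Nphs1 and Nphs1as can separate. Exon 1 of Nphs1as (chr7:30465449-30465591, 143 bases) and the part of its exon 3 that crosses the Nphs1 intron between exons 7 and 8 (chr7:30462700-30462844, 145 bases) are printed 5′ to 3′ on the minus strand, from the GENCODE M21 transcript. Capitals mark bases that lie in an Nphs1 exon on the other strand, and lower case marks bases that lie in an Nphs1 intron.
Nphs1as exon 1: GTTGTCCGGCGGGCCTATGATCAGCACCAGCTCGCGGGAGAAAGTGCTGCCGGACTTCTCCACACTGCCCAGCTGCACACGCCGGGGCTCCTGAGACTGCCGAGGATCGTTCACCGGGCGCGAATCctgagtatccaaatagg
Nphs1as exon 3, part: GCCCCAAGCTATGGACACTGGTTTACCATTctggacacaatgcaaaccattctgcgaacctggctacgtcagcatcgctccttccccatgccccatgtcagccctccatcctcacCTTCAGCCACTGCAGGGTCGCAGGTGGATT
Of the 143 bases of exon 1, 126 are in capitals, so reads from most of that exon match both genes and can be told apart by strand alone. In the part of exon 3, 60 of the 145 bases are in capitals, and the lower-case run between them belongs to Nphs1as but not to spliced Nphs1 RNA.

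Nphs1 was high in the 129 iPSC in ESC/LIF and in the ESC, lower in the NOD and WSB iPSC in 2iS, and near the limit of counting in the EpiSC and in the 129 iPSC in 2iS. Levels are CPM, gene counts relative to the library total after TMM scaling. In the 129 iPSC in ESC/LIF the Nphs1 level was 851 CPM in male clone 1, 763 in male clone 17, 526 in female clone 5 and 715 in female clone 8, a mean of 714 ± 137 (SD, n = 4). In the ESC it was 843 CPM in NOD, 695 in WSB and 312.4 in 129, a mean of 617 ± 274 (SD, n = 3). These groups overlapped, and the 129 ESC was lower than every 129 iPSC in ESC/LIF.

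The NOD female iPSC in 2iS had 356 CPM of Nphs1 in clone 7 and 271 in clone 52, a mean of 313 ± 60.3 (SD, n = 2). The WSB iPSC in 2iS had 87.5 CPM in clone 12, 201 in clone 23, 294 in clone 25 and 9.78 in clone 28, a mean of 148 ± 125 (SD, n = 4). WSB clone 28 had 1 count of Nphs1 where the other WSB clones had 15, 18 and 27, and the NOD and WSB groups overlapped. The EpiSC had 5.75 CPM in NOD (1 count) and 81.6 in 129 (10 counts), a mean of 43.7 ± 53.6 (SD, n = 2), below every ESC line and overlapping the WSB iPSC.

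Nphs1as was highest in the 129 iPSC in ESC/LIF, the males above the females, and lower in the ESC. In the 129 iPSC in ESC/LIF its level was 919 CPM in male clone 1, 726 in male clone 17, 312.3 in female clone 5 and 478 in female clone 8, a mean of 609 ± 268 (SD, n = 4). The ESC had 271 CPM in NOD, 299 in WSB and 124 in 129, a mean of 231 ± 94.3 (SD, n = 3). For Nphs1as, unlike Nphs1, the ESC lay below all 4 of the 129 iPSC in ESC/LIF.

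The NOD female iPSC in 2iS had 99.2 CPM of Nphs1as in clone 7 and 102 in clone 52. The WSB iPSC had 23.3 CPM in clone 12, 67.1 in clone 23, 87.1 in clone 25 and 9.78 in clone 28, a mean of 46.9 ± 36.3 (SD, n = 4). The EpiSC had 5.75 CPM in NOD and 16.3 in 129, from 1 and 2 counts. Both NOD female clones lay above all WSB clones and below all ESC lines, and the EpiSC overlapped the lowest WSB clone.

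Kirrel2 was barely counted anywhere. It had 23 counts in all 19 libraries, at most 5 in a library, and 9 libraries were at 0. The 129 iPSC in ESC/LIF had 5 and 0 counts in male clones 1 and 17 and 3 and 4 in female clones 5 and 8, and the WSB ESC had 3. The other libraries had 0 to 2, both EpiSC lines were at 0, and 0 counts allow a level of up to 14.6 to 36.9 CPM depending on the library. Kirrel2 did not pass the filter on low counts, so 2 of the 3 members passed it.

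**Figure D2:**
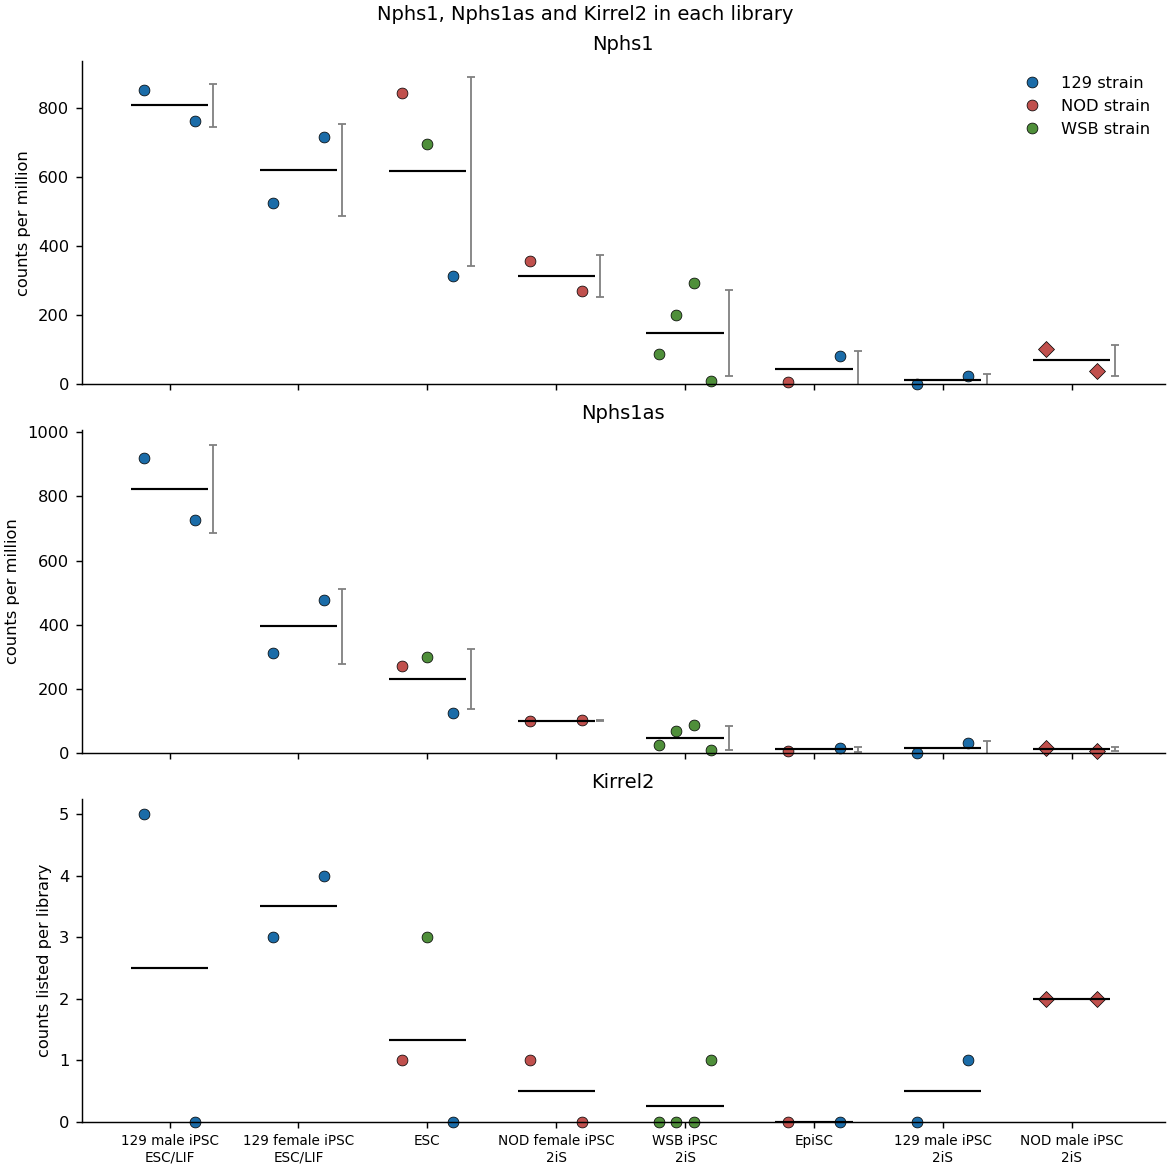
Level of Nphs1 and Nphs1as (CPM, upper panels) and counts of Kirrel2 (lower panel) in each library, by group, with strain as colour. Lines are group means, grey bars are SD with their lower ends stopped at 0, and diamonds are the NOD male iPSC, scaled in a fit of 19 libraries. The 129 iPSC in ESC/LIF lie at 526 to 851 CPM of Nphs1, and the EpiSC lie at 5.75 and 81.6.

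In the comparison that chose the members, the same 129 male clones were read in both media. By the titles, the 2iS libraries were of later passages, so medium and passage cannot be told apart here. Nphs1 went from 175 counts to 0 in clone 1 and from 62 to 3 in clone 17, and Nphs1as from 189 to 0 and from 59 to 4. All 4 values in 2iS lay far below those in ESC/LIF. On CPM, the 2iS libraries were at 0 and 24.1 for Nphs1 and at 0 and 32.2 for Nphs1as, and 0 counts in clone 1 allow up to 28.1 CPM. Summed over both clones the ratio of ESC/LIF to 2iS was 63.6 for Nphs1 (95% counting interval 21.5 to 311) and 49.9 for Nphs1as (19.3 to 185), and these intervals cover counting error only. Kirrel2 went from 5 counts to 0 in clone 1 and from 0 to 1 in clone 17, in opposite directions. In this comparison 0.803% of 3986 genes were called at an adjusted p under 0.05, which is given as background to the choice and not as a test of it.

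The ESC and EpiSC compare the naive with the primed state, and their culture media differ as well. By the titles the ESC were of earlier passages than the EpiSC, and the study names different laboratories as their sources. State, medium, passage and source cannot be told apart in this comparison. Nphs1 rose from EpiSC to ESC by 3.94 ± 0.77 on the log2 scale (SE, edgeR adjusted p = 0.000696), and Nphs1as by 4.35 ± 0.75 (adjusted p = 0.000226), in a comparison in which 20.6% of the 3986 genes tested were called. Each ESC line was above each EpiSC line for both genes. The EpiSC side rested on 11 counts of Nphs1 and 3 of Nphs1as, and the ratio of the ESC to the EpiSC counts was 15.7 for Nphs1 (counting interval 8.60 to 32.0) and 21.7 for Nphs1as (7.16 to 108). Without the NOD EpiSC the log2 difference was 2.88 for Nphs1 and 3.72 for Nphs1as, and without the 129 EpiSC it was 6.48 and 5.06, and all 4 were called. Between the NOD and 129 lines alone, with strain in the fit, the differences were 3.97 (adjusted p = 0.0285) and 4.23 (adjusted p = 0.00939).

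The ESC differed from the other lines in markers of fibroblasts, the cell type of feeder layers. The summed level of 10 such markers was 688 to 1493 CPM in the ESC, 58.0 to 272 in the EpiSC and 0 to 58.2 in the iPSC other than NOD males, where the NOD female clones had none of the 10 at any count. Their part in the ESC results was not tested. In these bulk libraries, fewer cells of a type and less RNA per cell cannot be told apart. The naive markers (10 genes such as Zfp42, Esrrb and Klf4) summed to 1006 to 1777 CPM in the ESC and to 17.4 to 51.0 in the EpiSC. The naive label was thus visible in the counts. The primed label was less clear. Its 10 markers summed to 348 to 790 CPM in the EpiSC and to 132 to 292 in the ESC. Only 1 of them passed the filter, and it was not called between ESC and EpiSC (−1.08 on the log2 scale).

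The WSB and NOD female iPSC in 2iS were set against the ESC, kept in medium with inhibitors of the same kinds, to ask how iPSC differ from ESC. Nphs1 fell by 1.53 on the log2 scale in these iPSC (−1.53 ± 0.45, SE, edgeR adjusted p = 0.0361), and Nphs1as fell by 1.77 (−1.77 ± 0.41, adjusted p = 0.00682), where 7.38% of all genes were called. For Nphs1as every iPSC clone lay below every ESC line, whereas for Nphs1 NOD clone 7 lay above the 129 ESC. The ESC were all male and these iPSC were of both sexes, and the part of sex was not tested. By the titles the ESC were of earlier passages, and they came from another laboratory, and these parts were not tested either. The 129 ESC had no iPSC of its strain in this comparison. Without it the differences were −1.86 for Nphs1 and −2.10 for Nphs1as, both called. The Nphs1 call was lost with DESeq2 (adjusted p = 0.325) and, in turn, without the NOD ESC (adjusted p = 0.189), the WSB ESC (0.0933), NOD clone 7 (0.0927), NOD clone 52 (0.13) or WSB clone 12 (0.0766). The Nphs1as call held without each of these libraries, with adjusted p values from 0.0209 to 0.046.

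Against the EpiSC, the same iPSC had more of both transcripts. Nphs1 was higher by 2.41 ± 0.75 on the log2 scale (SE, edgeR adjusted p = 0.0174) and Nphs1as by 2.58 ± 0.81 (adjusted p = 0.0182), in a comparison with 31.1% of all genes called. This share is high, and WSB clone 28, with 1 count of each gene, lay within the range of the EpiSC. Without the NOD EpiSC neither was called (1.35, adjusted p = 0.211, and 1.95, adjusted p = 0.166). Without the 129 EpiSC the differences were 4.96 and 3.29. The comparisons of ESC and of these iPSC share the EpiSC libraries. Medium differs here too, and the EpiSC were all male while these iPSC were of both sexes. Strain differs as well, since the EpiSC were NOD and 129 and these iPSC were WSB and NOD. The EpiSC also came from other laboratories. The parts of these differences were not tested.

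The 129 female iPSC in ESC/LIF are the lines in that medium that the choice of members did not use. The WSB and NOD female iPSC in 2iS had less Nphs1as, by 2.58 on the log2 scale (−2.58 ± 0.41, SE, edgeR adjusted p = 0.000449), where 2.66% of all genes were called. All 6 of these iPSC lay at 9.78 to 102 CPM, below both 129 female clones at 312.3 and 478. Nphs1 lay lower by a log2 difference of −1.56 ± 0.49 that was not called (adjusted p = 0.0907), although its 6 values, 9.78 to 356 CPM, also lay below 526 and 715. The Nphs1as call was lost without female clone 8 (−2.20, adjusted p = 0.0686). Strain and medium cannot be told apart in this comparison, since no NOD or WSB iPSC was read in ESC/LIF and no 129 female iPSC in 2iS. The WSB male clones also differ in sex from the 129 females.

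WSB and NOD female iPSC, both in 2iS, compare the strains in 1 medium. The WSB clones were of both sexes and the NOD clones female, so sex is not balanced between the strains. The log2 difference of WSB from NOD was −1.15 ± 0.58 for Nphs1 (SE, edgeR adjusted p = 0.473) and −1.20 ± 0.57 for Nphs1as (adjusted p = 0.426), neither called, with 1.18% of all genes called. The spread between the WSB clones, from 9.78 to 294 CPM of Nphs1, was wider than the distance between the group means.

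**Figure D3:**
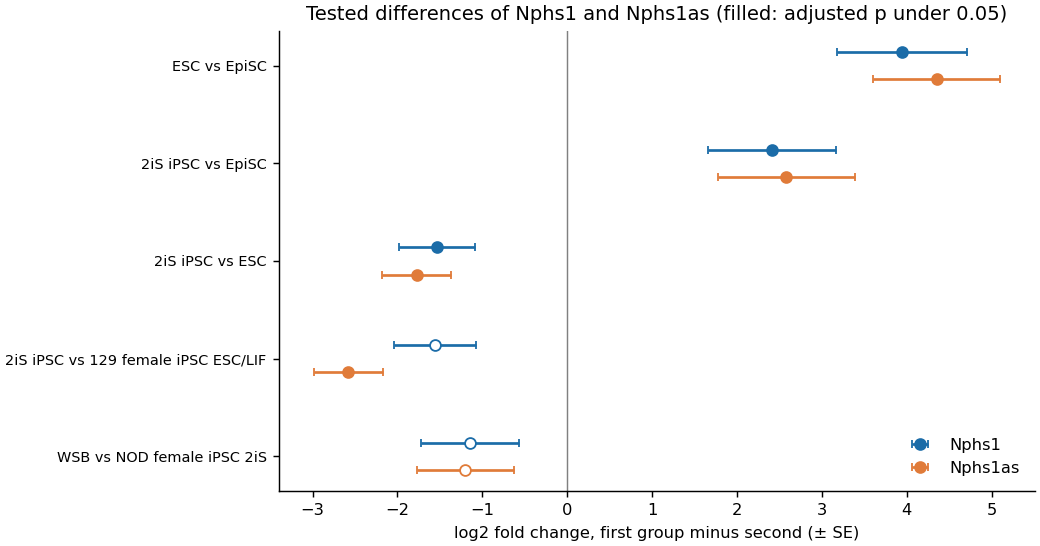
Log2 fold change (first group minus second) of Nphs1 and Nphs1as with SE in the 5 comparisons tested on 17 libraries, filled where the edgeR adjusted p was under 0.05. Both genes lie above 0 against the EpiSC and below 0 against the ESC, and of the differences from the 129 female iPSC in ESC/LIF only that of Nphs1as, at −2.58, is filled.

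The NOD male iPSC are described apart. In a fit of all 19 libraries they had 101 and 37.8 CPM of Nphs1 in clones 3 and 35, and 15.5 and 7.21 CPM of Nphs1as, against 362 and 274 and against 101 and 103 in NOD female clones 7 and 52 in that fit. The log2 difference of males from females was −2.16 ± 0.63 for Nphs1 (SE, edgeR adjusted p = 0.0102) and −3.05 ± 0.62 for Nphs1as (adjusted p = 0.000331), with 30.5% of 4641 genes called, but scaled to all aligned pairs instead of gene counts the Nphs1 difference turned to 0.24 (adjusted p = 0.745) and the Nphs1as difference was −0.69 (adjusted p = 0.331). That scaling moved the median of all genes from 0.15 to 2.56.

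Per aligned read pair, the NOD males thus had 1.16 times as much Nphs1 and 0.596 times as much Nphs1as as the NOD females, while 25 genes abundant in every cell were at least 4.15 times and in the median 10.4 times as high. Kirrel2 was 5.46 times as high per aligned pair, from 4 counts against 1. Whether the NOD male libraries were counted over another strand than the rest was not tested. The Nphs1 call of the fit of 19 libraries was lost without NOD female clone 7 (−1.95, adjusted p = 0.0805) or NOD male clone 35 (−1.69, adjusted p = 0.117), and without NOD male clone 3 the differences were −3.10 for Nphs1 and −3.73 for Nphs1as.

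The balance of the counts listed under the 2 overlapping genes differed between lines. If the opposite strand was counted, a share of Nphs1as is a share of RNA of the Nphs1 strand over Nphs1as exons, so the shares below are those of the listings. Nphs1as made up 51.9% of the counts of Nphs1 and Nphs1as together in 129 male clone 1 in ESC/LIF (95% Wilson interval 46.8% to 57.0%, 364 counts) and 48.8% in male clone 17 (40.0% to 57.6%, 121 counts). It made up 37.3% in female clone 5 (28.8% to 46.6%, 110 counts) and 40.1% in female clone 8 (33.8% to 46.7%, 217 counts). These 4 shares were higher than that of any other line with at least 10 counts.

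In the ESC the share was 24.3% in NOD, 30.1% in WSB and 28.3% in 129, so the 129 ESC lay with the other ESC and not with the 129 iPSC in ESC/LIF. It was 21.8% and 27.3% in NOD female clones 7 and 52, 25.0% and 22.9% in WSB clones 23 and 25, 4 of 19 counts in WSB clone 12, and 16.7% in the 129 EpiSC. NOD male clone 3 had 13.3%, and clone 35 had 4 of 25 counts. The NOD EpiSC and WSB clone 28, with 2 counts of both genes each, and the 129 iPSC in 2iS, with 7 in all, give no usable share.

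The share was compared after the counts had been seen, and without the 129 males, whose medium chose the members, or the NOD males. The mean was 38.7% in the 129 female iPSC in ESC/LIF (n = 2) and 24.2% ± 4.13 (SD, n = 9) in the other lines, a difference of 14.5 percentage points (exact two-sided permutation test, p = 0.0364, the smallest that this design can give). Both female clones were above all 9 other lines. With at least 20 counts required, 7 other lines were left and p was 0.0556, the smallest that design can give, with both female clones again above all others. Strain, medium and cell origin differ together between the groups compared. The groups were set with the shares in view, and the other lines mix states, strains and media. These p values thus describe the ranking and are no support for a difference.

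Per length, the listing of Nphs1as was above that of Nphs1 in the 129 iPSC in ESC/LIF, the ESC, the NOD female iPSC and the WSB iPSC, but not in the NOD male iPSC. The EpiSC (11 counts of Nphs1 and 3 of Nphs1as) and the 129 iPSC in 2iS (3 and 4) had too few counts for a ratio. Over 6620 exon bases of Nphs1 and 1339 of Nphs1as in GENCODE M21, the counts per kb of Nphs1as were 5.17 times those of Nphs1 in the 129 male and 3.18 times in the 129 female iPSC in ESC/LIF. The ratio was 1.86 in the ESC, 1.57 in the NOD female iPSC, 1.54 in the WSB iPSC and 0.797 in the NOD male iPSC. The annotation used for the counts is not given in the sources used here, so the lengths may differ from those counted, and if the opposite strand was counted the ratio compares RNA of the other strands.

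**Figure D4:**
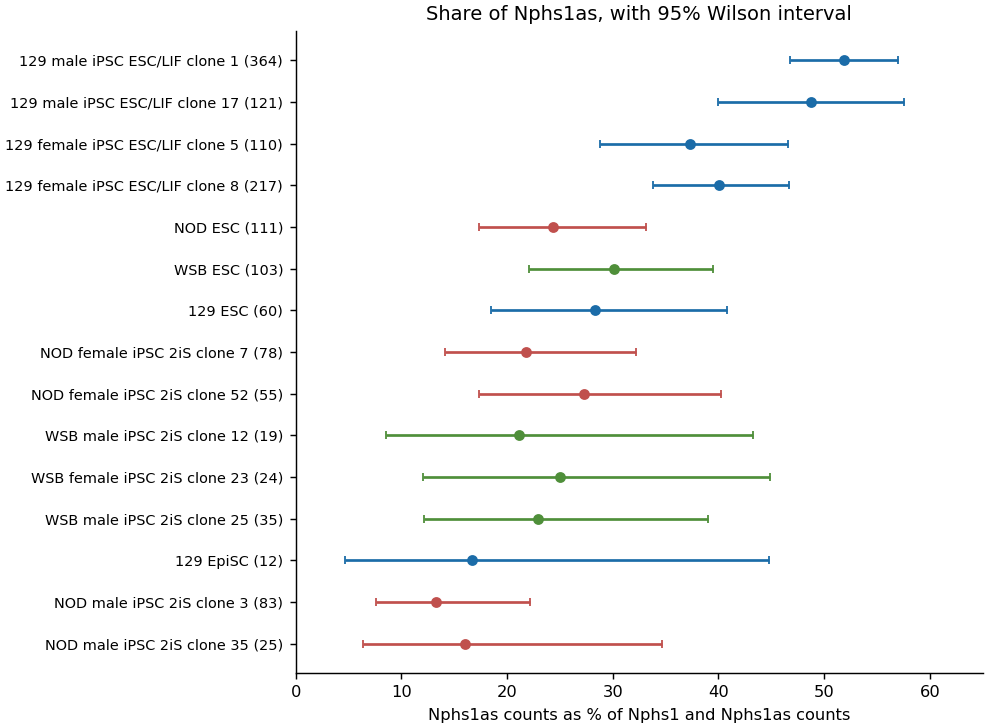
Nphs1as counts as a percentage of the counts of Nphs1 and Nphs1as, with 95% Wilson intervals for counting error, in the 15 libraries with at least 10 such counts (number in brackets, colour by strain). The 4 libraries of 129 iPSC in ESC/LIF lie at 37.3% to 51.9%, and all others at 30.1% or below.

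The genes whose levels ran most like that of Nphs1 were described by Spearman's rho over 17 libraries, among 3985 other genes that passed the filter. The libraries share the 129 lines that chose the members and a common scaling, so rho is a description. Nphs1as came first (rho 0.953), then Tnfsf12, a ligand of the TNF superfamily (0.897), N4bp3 (0.870), Pmel, a structural protein of melanosomes (0.831), and Adrb3, a beta-adrenergic receptor (0.797). Tnfsf12 was at 61.5 to 112 CPM in the 129 male iPSC in ESC/LIF, 5.75 to 16.3 in the EpiSC and 0 to 24.1 in the 129 iPSC in 2iS. Pmel kept 150 to 209 CPM in the 129 iPSC in 2iS, where Nphs1 had 0 and 24.1.

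The genes around the locus were sparse. Within 100 kb of the members, GENCODE M21 places 22 other genes, of which 14 were matched in the files, 4 were at 0 in every library and 1 passed the filter. Prodh2, next to Nphs1, was one of those at 0. Aplp1, beside Kirrel2 and encoding an amyloid precursor-like protein, had 76 counts in all libraries, with 13 in the 129 male iPSC in ESC/LIF, 0 in the same clones in 2iS, 7 in the ESC and 4 in the EpiSC. The gene that passed, Kmt2b (listed as Wbp7), a histone methyltransferase, was called in none of the 6 comparisons tested, with edgeR adjusted p values from 0.21 to 0.985.

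Other genes of the slit diaphragm and of podocytes were called about as often as all genes from EpiSC to ESC. Of 35 listed symbols, which include both Kirrel and its other name Kirrel1, 34 were in the files and 11 passed the filter. From EpiSC to ESC 1 rose, Kirrel3, a nephrin-related adhesion protein (3.83 ± 1.01, SE, edgeR adjusted p = 0.00935), and 1 fell, Podxl, the podocyte sialoprotein podocalyxin (−2.80 ± 0.76, adjusted p = 0.0111). That was 2 of 11, where 20.6% of all genes were called, and the median of the 11 was 0.09, against 0.06 over all genes tested. From ESC to the iPSC in 2iS both went the other way, Podxl by 2.60 ± 0.68 (adjusted p = 0.017) and Kirrel3 by −3.92 ± 0.73 (adjusted p = 0.00132), 2 of 11 where 7.38% of all genes were called. These comparisons share the ESC libraries, in which the fibroblast markers were high.

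Against the EpiSC, the iPSC in 2iS had less Tjp1, which encodes the junction protein ZO-1 (−1.37 ± 0.39, edgeR adjusted p = 0.00991), 1 of 11 called where 31.1% of all genes were called. Against the 129 female iPSC in ESC/LIF they had less Kirrel, the gene of Neph1, which binds nephrin (−2.34 ± 0.39, adjusted p = 0.000869), 1 of 11 called where 2.66% of all genes were called. Between WSB and NOD female iPSC the median log2 difference of the 11 was 0.231, against 0.00098 over all genes tested. Between NOD males and females 4 of 13 such genes were called, all higher in the males, where 30.5% of all genes were called, and aligned-pair scaling moved the median of all genes to 2.56.

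Adhesion genes of the immunoglobulin superfamily were listed by 27 symbols, with both names of the Kirrel and nectin (Pvrl) genes. Of these symbols 22 were in the files, so no gene is missing on that account, and 5 passed the filter. From EpiSC to ESC 3 rose, Jam2 (2.96 ± 0.51, edgeR adjusted p = 0.00023), Pecam1 (5.36 ± 1.39, adjusted p = 0.00861) and Kirrel3, and Jam3 fell (−2.91 ± 0.48, adjusted p = 0.000137), 4 of 5 called where 20.6% of all genes were called. Jam2, Jam3 and Pecam1 encode junction proteins first known from endothelium. From ESC to the iPSC in 2iS, Kirrel3 was the 1 of the 5 that was called, where 7.38% of all genes were called. Against the EpiSC these iPSC had more Jam2 (3.52 ± 0.46) and Pecam1 (5.92 ± 1.25) and less Jam3 (−1.48 ± 0.35). These 3 of 5 were called where 31.1% of all genes were, and the EpiSC libraries are shared with the ESC comparison. Against the 129 female iPSC only Kirrel was called, where 2.66% of all genes were. In the NOD males 1 of 7 was called, Jam3 (−2.03 ± 0.48), where 30.5% of all genes were.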

How the data were processed

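Counts per gene were deposited by the authors as 1 file per library: per the labels and the study's methods, read pairs were trimmed with Trimmomatic, aligned to GRCm38 with TopHat2 (2.1.1) and counted with HTSeq in the intersection-nonempty mode. Pairs on no gene made up 94.4% to 98.9% of the uniquely aligned pairs and stayed out of library sizes. Groups came from the sample titles; in all 19 samples the source name and characteristics name another line or condition, and this conflict was not resolved. Differences were tested with edgeR (4.0.16) quasi-likelihood fits of the deposited counts (TMM, filterByExpr, 7 groups, 17 libraries, Benjamini-Hochberg, adjusted p under 0.05), checked on simulated counts. The NOD male iPSC, which the study leaves out of its comparisons with ESC and EpiSC, entered a separate fit. DESeq2 (1.42.0), its size factors, no filter, aligned pairs as library size, smaller fits and leaving out each library were tried. The members and lists were chosen with earlier results of these data known. Named genes were the members, up to 3 called genes per list and direction, genes beside the members, and the 5 genes most correlated with Nphs1. The 129 clones in both media pair by design (correlation of their deviations 0.0616). Shares used Wilson intervals from scipy, and intervals and floors (3 counts) cover counting error only.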

Additional observations from a re-analysis of the deposited data

Results flagged for a closer look

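Dixon's test at the 95% level was applied to each member in the groups of 4 libraries, 9 cases in all. For normally spread values, chance flags about 1 in 20 cases. Kirrel2 was flagged in 129 male clone 17 in ESC/LIF, at 0 CPM where the other 129 iPSC in ESC/LIF were at 22.0 to 24.3. It was also flagged in WSB clone 28 in 2iS, at 9.78 CPM from 1 count where the other WSB clones were at 0. Both rest on 0 to 5 counts, so that rate does not apply to them. A lone count among libraries at 0, as in the WSB clones, is always flagged.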

How the results depend on the processing

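The direction of Nphs1 and Nphs1as was kept in every tested comparison of the 17 libraries under all alternatives. Nphs1 in the iPSC in 2iS lost its call against the ESC with DESeq2 (−1.56) and with aligned read pairs as library size (−1.15, adjusted p = 0.0829, where the median of all genes moved to 0.33), and against the EpiSC with DESeq2 (2.30, adjusted p = 0.0789). Against the 129 female iPSC it gained a call with no filter (−1.62), with these groups fitted alone (−1.56, adjusted p = 0.0101) and with Nphs1 and Nphs1as added together (−1.87). In the NOD males DESeq2 lost the Nphs1 call (−2.30, adjusted p = 0.12), and aligned read pairs gave 0.24 for Nphs1, reversed, and −0.69 for Nphs1as. Leaving out 1 library at a time gave −1.86 to −1.24 for Nphs1 against the ESC, 1.35 to 4.96 for Nphs1 and 1.95 to 3.29 for Nphs1as against the EpiSC, −2.84 to −2.20 for Nphs1as against the 129 females, and −3.10 to −1.69 for Nphs1 in the NOD males. For the 129 males between media it gave −9.75 to −5.02 for Nphs1 and −9.78 to −4.65 for Nphs1as, and with the clone as replicate block, a paired fit, −5.89 and −5.52 beside −5.87 and −5.52. Apart from the scaling and the added or removed libraries themselves, the cause was not tested. Counts of genes called moved by over 1.5 times for ESC against EpiSC (821, 329 fitted alone, 188 with strain in the fit), iPSC against ESC (294, 512 with no filter), iPSC against 129 females (106, 57 with DESeq2, 244 with no filter, 214 fitted alone), WSB against NOD (47, 29, 133 and 84), the 129 media (32, 88 with no filter, 192 fitted alone) and the NOD males (1417, 3422 with aligned pairs). Leaving out 1 library at a time, these counts ran from 496 to 905, 175 to 277, 26 to 107, 8 to 30, 1 to 15 and 904 to 1087, and for iPSC against EpiSC (1239) from 796 to 1229, and the shares of genes called given as background move with them. Aligned pairs also turned the balance of higher to lower calls from 389 and 432 to 479 and 286 for ESC against EpiSC, from 50 and 244 to 248 and 158 for iPSC against ESC, from 483 and 756 to 1108 and 363 for iPSC against EpiSC, and from 380 and 1037 to 3379 and 43 for the NOD males. Kirrel2, tested without a filter, had edgeR adjusted p values from 0.339 to 1. At these depths 1 count is a large part of the level in the EpiSC, in the 129 iPSC in 2iS and in WSB clone 28.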
